A study of Homo sapiens with 4 samples.

Results

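The ID genes encode the inhibitors of DNA binding, a family of 4 genes in human (ID1, ID2, ID3 and ID4) of which all 4 were followed here among the 58735 gene identifiers with a value. They were measured in HCT116, a human colorectal carcinoma cell line, 48 h after transfection with a control siRNA (2 libraries) or with siRNA against KIF26B, which encodes a kinesin (2 libraries). The labels do not say whether replicates were separate cultures or which of the siRNA sequences against KIF26B each library received. The deposited values are headed NC_1 and NC_2 for the controls and K_KD1_2 and K_KD2 for KIF26B siRNA. The paper used 2 siRNAs against KIF26B in other assays. The spread between the KIF26B siRNA libraries may therefore be technical, biological or due to different siRNA sequences, which cannot be told apart. ID2 was selected on its lower FPKM after KIF26B siRNA in these same libraries, and ID1, ID3 and ID4 were added as its paralogs. The differences between the groups are therefore given as a description, with no p-value for the 4 genes. Poly(A) RNA was sequenced, and levels are given as FPKM, which counts fragments against the exon length of the gene and the size of the library, so that levels of different genes can be set side by side per length. The lengths the values imply were 1233 bases for ID1, 2205 for ID2, 1797 for ID3 and 2344 for ID4, against 1233, 2213, 1496 and 3873 bases of exon in the GRCh37 annotation used here, so levels of ID3 and ID4 beside other genes depend on the annotation.

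ID proteins carry a helix-loop-helix domain but lack the basic region with which other proteins of this class hold DNA. They pair with E proteins, the broadly expressed members of the class, and so keep them and their tissue-restricted partners off their sites, which in many tissues delays differentiation and keeps cells dividing. Bone morphogenetic proteins (BMPs) induce ID1, ID2 and ID3 through receptors that activate SMAD1 and SMAD5, and in the intestine BMP signals are known to oppose Wnt signals along the crypt. The question here is how far the lower level of ID2 extended to the other BMP-induced members of its family.

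The 250 bases before the annotated start of each member are shown because ID2 and its paralogs differed in these libraries. They are only a part of the sequence in which control sites can lie, and sites farther away were not read. The starts are those of RefSeq and were not compared with the gene spans on GRCh37 given below, from which they may differ. The sequences and coordinates are those of RefSeq on GRCh38.p14, where all 4 members had an entry, and are written from the 5′ end on the strand of the gene, with capitals on CCAAT boxes, TATA boxes (TATAAA) and the SMAD4-binding letters CAGAC, on either strand.
ID1: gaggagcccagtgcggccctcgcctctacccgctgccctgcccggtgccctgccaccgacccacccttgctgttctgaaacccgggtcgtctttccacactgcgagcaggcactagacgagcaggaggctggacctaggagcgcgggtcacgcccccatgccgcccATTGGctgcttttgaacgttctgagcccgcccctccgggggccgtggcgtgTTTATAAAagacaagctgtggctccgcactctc
ID2: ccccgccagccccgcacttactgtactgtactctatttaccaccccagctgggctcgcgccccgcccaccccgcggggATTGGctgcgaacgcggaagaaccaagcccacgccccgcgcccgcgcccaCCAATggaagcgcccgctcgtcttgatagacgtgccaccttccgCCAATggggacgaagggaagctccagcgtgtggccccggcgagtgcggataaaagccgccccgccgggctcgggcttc
ID3: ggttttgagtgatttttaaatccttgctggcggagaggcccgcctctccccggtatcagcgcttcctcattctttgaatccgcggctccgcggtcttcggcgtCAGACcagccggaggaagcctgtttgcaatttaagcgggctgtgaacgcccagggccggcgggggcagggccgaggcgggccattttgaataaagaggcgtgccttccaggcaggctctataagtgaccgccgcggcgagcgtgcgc
ID4: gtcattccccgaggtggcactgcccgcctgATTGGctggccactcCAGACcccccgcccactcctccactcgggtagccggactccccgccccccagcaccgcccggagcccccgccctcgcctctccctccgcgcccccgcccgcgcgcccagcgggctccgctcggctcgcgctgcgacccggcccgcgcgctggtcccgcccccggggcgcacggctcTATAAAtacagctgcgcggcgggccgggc
They lie at chr20:31605039-31605288 (plus strand) for ID1, chr2:8681806-8682055 (plus strand) for ID2, chr1:23559502-23559751 (minus strand) for ID3 and chr6:19837120-19837369 (plus strand) for ID4. The window of ID2 held 3 CCAAT boxes (CCAAT or its reverse complement ATTGG), those of ID1 and ID4 held 1 each and that of ID3 none. At least 1 CCAAT box was found in 33.0% of the 27305 promoter windows of this length, and at least 3 in 3.09%. TATAAA on either strand was found in the windows of ID1 and ID4, against 11.1% of all windows. In ID1 the matches on both strands overlap, and the windows of ID2 and ID3 did not hold these letters. CAGAC or its reverse complement GTCTG, read by SMAD4, was found once in the windows of ID3 and ID4 and in 37.8% of all windows. GGCGCC, a GC-rich site of SMAD1 and SMAD5, was found in none of the 4 windows and in 16.1% of all windows. CAGCTG, a site of E proteins, was found in the windows of ID2 and ID4, the latter 21 to 16 bases before the start, and in 13.8% of all windows. CACGTG, read by MYC and USF factors, was found in none of the 4 windows and in 6.49% of all windows. GGAATG or its reverse complement CATTCC, read by TEAD factors, was found in the window of ID4 (11.9% of all windows). CTTTGA or its reverse complement TCAAAG, read by TCF/LEF factors, was found in that of ID3 (11.4% of all windows). TGACG or its reverse complement CGTCA, part of the site of CREB-type factors, was found in the window of ID3 (21.7% of all windows), where it overlaps CAGAC. These matches describe the letters of the windows only.

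Before the members were compared, the libraries were examined. The reads behind the values could be recovered as whole numbers and summed to 19521913 and 24700684 for control siRNA and 21439182 and 19073721 for KIF26B siRNA. KIF26B, the targeted gene, had 31 and 73 reads under control siRNA and 43 and 8 reads under KIF26B siRNA (replicates 1 and 2), so that the library labelled KIF26B siRNA replicate 1 lay between the controls and the directions below go by the labels. Over genes with at least 20 reads in a pair, the median squared difference was 2.31 times that of counting noise between the control siRNA libraries and 16.2 times between the KIF26B siRNA libraries. The mitochondrial share of reads was 6.87% and 6.88% under control siRNA against 9.64% and 7.75% under KIF26B siRNA, and its part in the results below was not tested. The 8 markers of colorectal epithelium were above 0 in every library, with a summed level of 1563 to 1696 FPKM (VIL1 and LGALS4 at most at 0.124), whereas the summed level was 4.87 to 8.76 FPKM for 6 fibroblast markers, mostly COL1A1, and at most 0.494 FPKM for the 3 endothelial and the 5 immune cell markers read, of which CD3E was at 0 in every library.

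ID2, which holds back E proteins and also binds the retinoblastoma protein, stood at 131.1 and 127.2 FPKM under control siRNA and at 41.0 and 25.5 FPKM in KIF26B siRNA replicates 1 and 2 (5675, 6919, 1931 and 1017 reads). Both KIF26B siRNA libraries lay far below both controls, at 31.7% and 19.8% of the control mean. The mean went from 129.1 ± 2.79 to 33.3 ± 10.9 FPKM (SD, n = 2 each), a 3.88-fold lower level and a difference of −1.96 on the log2(FPKM + 1) scale (standard error 0.26 from limma). The selection of ID2 on these libraries places it near the lowest difference, so nothing is read from its rank. Of the 14523 genes tested, 3 had a lower log2 difference than ID2, and each of these had at most 8 reads in any library. Among the 12268 of them with at least 100 reads over the control siRNA libraries, a minimum chosen after the values were seen, ID2 had the lowest. This order holds on the log2(FPKM + 1) scale, which understates the differences of low genes. With a pseudocount of 0.1, SMAD7, followed below, was lower than ID2 (−2.17 against −1.99), as it was under limma-voom (−2.31 against −1.99).

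ID1, the member most strongly tied to BMP signals in many cell types, was the most abundant member. It stood at 315.7 and 326.7 FPKM under control siRNA and at 231.5 and 270.1 FPKM in KIF26B siRNA replicates 1 and 2 (7642, 9940, 6099 and 6018 reads). Both libraries of KIF26B siRNA lay below both controls, at 72.1% and 84.1% of the control mean. In FPKM the gap between the groups was wider than the distance between the replicates of either. On the log2(FPKM + 1) scale it was nearly equal to the distance between the KIF26B siRNA libraries, 0.22. The mean went from 321.2 ± 7.77 to 250.8 ± 27.3 FPKM (SD, n = 2 each), a difference of −0.36 on the log2(FPKM + 1) scale (standard error 0.13 from limma). The 95% interval of this difference, −0.73 to 0.01, included 0. In the order of all genes tested from the lowest difference upward, ID1 was at 14.2%.

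ID3, which is induced by BMPs together with ID1, showed no common direction. It stood at 21.7 and 22.4 FPKM under control siRNA, at 26.6 FPKM in KIF26B siRNA replicate 1 and at 10.96 FPKM in replicate 2 (764, 994, 1022 and 356 reads). KIF26B siRNA replicate 1 was above both controls, at 121% of their mean, and replicate 2 below both, at 49.7%. The means of 22.04 ± 0.54 and 18.8 ± 11.1 FPKM (SD, n = 2 each) differed by −0.34 on the log2(FPKM + 1) scale with a standard error of 0.44 from limma, so that the difference was smaller than its error. Without KIF26B siRNA replicate 2 it was 0.26, and without replicate 1 it was −0.95.

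ID4, the member best known from brain and mammary gland, was near the limit of detection, with 0.0652 and 0.380 FPKM under control siRNA and 0.200 and 0.0472 FPKM in KIF26B siRNA replicates 1 and 2. These values correspond to 3, 22, 10 and 2 reads, or to whole multiples of them. The 95% exact Poisson intervals, which cover counting error only, were 0.0134 to 0.191, 0.238 to 0.576, 0.0958 to 0.367 and 0.00572 to 0.171 FPKM, and the groups overlapped. The difference of −0.11 on the log2(FPKM + 1) scale (standard error 0.17 from limma over all genes above 0) could not be told from 0 at this depth, and ID4 did not pass the minimum of 1 FPKM on average that the other 3 members passed.

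**Figure D1:**
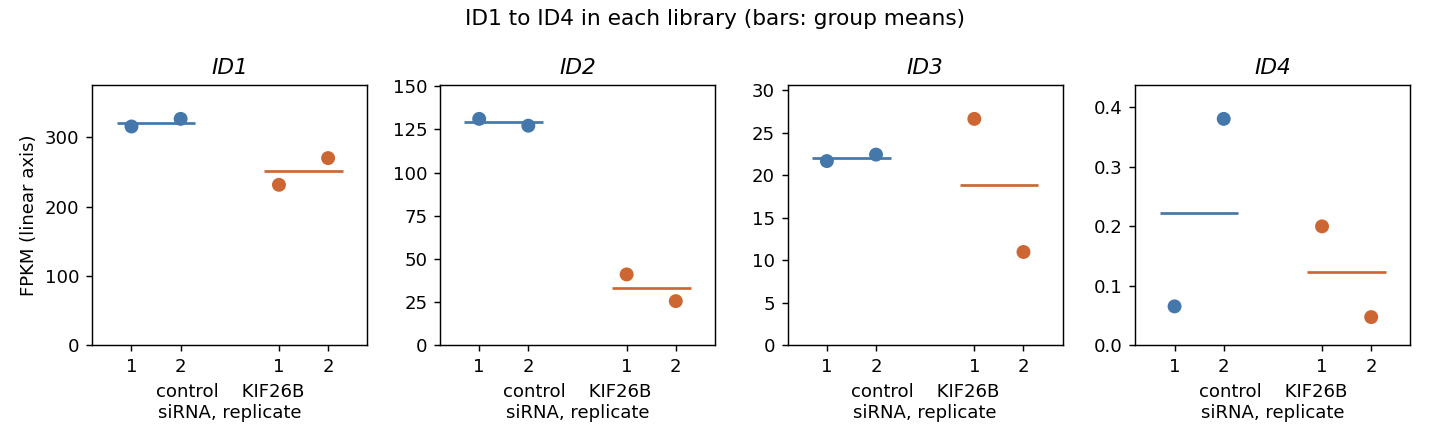
FPKM of ID1, ID2, ID3 and ID4 (linear vertical axes starting at 0, a scale per gene) in each library by replicate number, with control siRNA in blue, KIF26B siRNA in orange and horizontal bars at the group means. ID2 is at 127.2 or more under control siRNA and at 41.0 or less under KIF26B siRNA, ID1 is lower by a smaller share, the ID3 values of the KIF26B siRNA libraries lie on both sides of the controls, and ID4 stays under 0.4.

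In the fit across all genes, limma on log2(FPKM + 1), no gene reached an adjusted p below 0.05 (smallest 0.242), and limma-voom on the recovered reads also called 0. At an unadjusted P below 0.05, 2385 genes passed. The thresholds of the study's methods, a log2 fold change beyond 1 at an unadjusted P below 0.05, were met by 1.42% of all genes tested (0.606% lower and 0.813% higher). Of the 3 members tested, 1 had a log2 difference beyond 1, ID2, which its selection on these libraries had fixed, and nothing is read from that count. Both libraries of KIF26B siRNA lay below both controls for 27.8% of all genes tested and above both for 24.9%, and ID1 and ID2 were among the former. For 2 against 2 libraries, an exact permutation test (two-sided) gives no p under 0.333, and none was made.

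**Figure D2:**
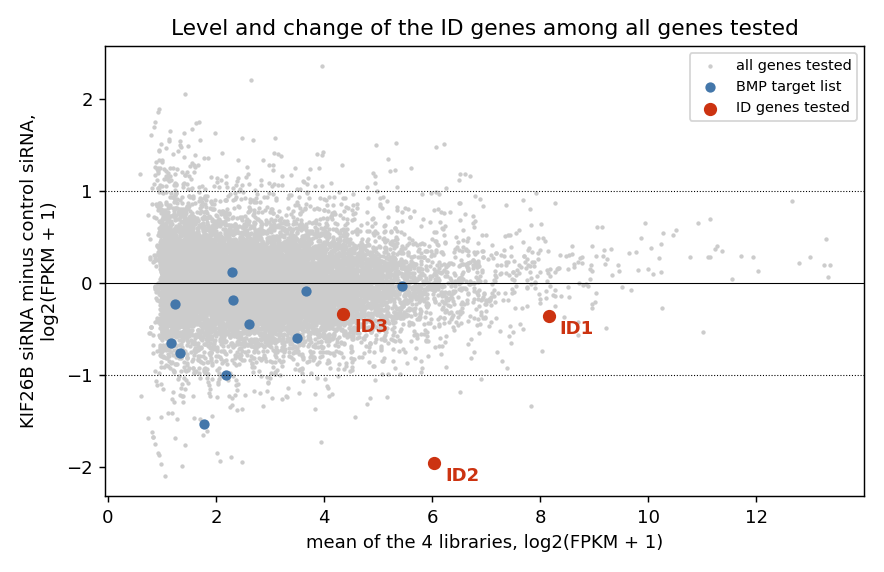
Difference between the group means on the log2(FPKM + 1) scale (vertical axis) against the mean of the 4 libraries on the same scale (horizontal axis) for each of the 14523 genes tested (grey), the tested genes of the BMP target list (blue) and the 3 ID genes tested (red), with dotted lines at −1 and 1. ID2 lies at −1.96, a low place that its selection on these libraries had fixed, and ID1 at −0.36 and ID3 at −0.34 lie within the grey cloud.

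The order of the levels per length was ID1, ID2, ID3 and ID4 in each of the 4 libraries. In the control siRNA libraries no neighbours in this order overlapped. In the KIF26B siRNA libraries the ranges of ID2 (25.5 to 41.0 FPKM) and ID3 (10.96 to 26.6 FPKM) overlapped, although ID2 was higher than ID3 within each library. Among all genes tested, the control mean of ID1 ranked at 83 from the highest, that of ID2 at 228 and that of ID3 at 1949.

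The make-up of the family differed with these levels. The summed level of the 4 members was 468.6 and 476.7 FPKM under control siRNA and 299.4 and 306.7 FPKM under KIF26B siRNA. ID2 supplied 27.98% and 26.7% of this sum in the control siRNA libraries but 13.7% and 8.32% in KIF26B siRNA replicates 1 and 2. The share of ID1 was 67.4% and 68.5% in the controls and 77.3% and 88.1% in the KIF26B siRNA libraries. In FPKM, the group mean of ID2 was lower (difference −95.9) by more than that of ID1 (difference −70.4), and the 2 together made up most of the difference of −169.6 in the sum. The ratio of ID2 to ID1, which does not depend on how a library is scaled, was 0.415 and 0.389 in the controls and 0.177 and 0.0945 in the KIF26B siRNA libraries, without overlap. The ratio of ID3 to ID1 was 0.0686 in both controls and 0.115 and 0.0406 in KIF26B siRNA replicates 1 and 2.

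**Figure D3:**
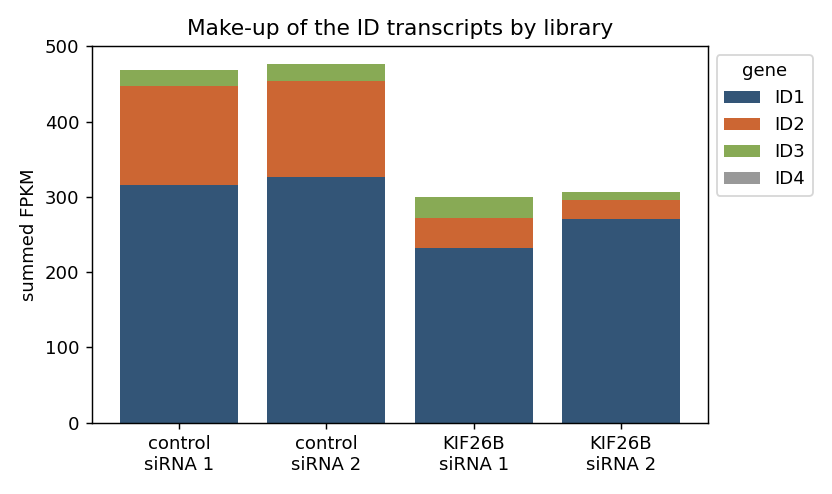
Stacked FPKM of ID1, ID2, ID3 and ID4 (vertical axis, starting at 0) in each of the 4 libraries (horizontal axis). The sum is 468.6 or more in the control siRNA libraries and 306.7 or less in the KIF26B siRNA libraries, where the ID2 segment is narrower, and ID4 is too low to be seen.

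The KIF26B siRNA libraries also differed from each other, and not alike for all members. The level of ID1 in replicate 2 was 1.17 times that in replicate 1 (95% exact binomial interval 1.13 to 1.21, counting error only). For ID2 the ratio was 0.623 (0.577 to 0.672), and for ID3 it was 0.412 (0.364 to 0.465). Between the control siRNA libraries the same ratios were 1.03, 0.970 and 1.04. ID1 was thus higher, and ID2 and ID3 lower, in replicate 2 than in replicate 1. A distance between the KIF26B siRNA libraries at least as large was seen for 58.7% of all genes tested in the case of ID1, for 15.7% in the case of ID2 and for 2.95% in the case of ID3. These ratios compare single libraries, not conditions, and they depend on how a library is scaled. In KIF26B siRNA replicate 2 the recovered reads summed to 1.056 times the library size that the FPKM values imply, against 1.004 times in replicate 1. The intervals do not cover this difference.

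On the GRCh37 annotation, ID1 (ENSG00000125968) lies on chromosome 20 from 30193086 to 30194318, ID2 (ENSG00000115738) on chromosome 2 from 8818975 to 8824591, ID3 (ENSG00000117318) on chromosome 1 from 23884417 to 23885992 and ID4 (ENSG00000172201) on chromosome 6 from 19837601 to 19842428, all on the plus strand except ID3. The members therefore lie on different chromosomes. The nearest protein-coding genes with a value were followed to see whether the region of a member differed with it. Beside ID2, KIDINS220, which encodes a scaffold of neurotrophin receptors and lies 36620 bases to its right, stood at 5.37 and 5.08 FPKM under control siRNA and 4.55 and 4.15 FPKM under KIF26B siRNA (log2 difference −0.22, standard error 0.12, adjusted p = 0.418 from limma). RNF144A, a ubiquitin ligase gene 1610558 bases to the left of ID2, had a log2 difference of 0.24 (adjusted p = 0.538 from limma). The antisense gene ID2-AS1 overlaps ID2 over 3020 bases, and since the library kit does not mark strand, reads of this stretch cannot be told apart. It had 68 and 96 reads under control siRNA and 42 and 78 reads under KIF26B siRNA, with overlapping values of 0.841, 0.944, 0.477 and 1.05 FPKM. How reads of the shared stretch were assigned is not given, so these numbers do not measure the antisense transcript within it.

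Beside ID1, HM13, a signal peptide peptidase gene, had a log2 difference of −0.11 (adjusted p = 0.812 from limma), and COX4I2, a subunit gene of cytochrome c oxidase, was at most at 0.0675 FPKM. Beside ID3, the ribosomal protein gene RPL11 stood at 175.6 and 189.5 FPKM under control siRNA and 258.6 and 311.1 FPKM under KIF26B siRNA (log2 difference 0.63, standard error 0.15, adjusted p = 0.248 from limma), and the cell cycle factor gene E2F2 at 6.20 and 5.67 against 3.05 and 4.58 FPKM (log2 difference −0.54, standard error 0.20, adjusted p = 0.308 from limma). Beside ID4, the acyltransferase gene MBOAT1 had a log2 difference of −0.70 (standard error 0.17, adjusted p = 0.248 from limma), and RNF144B was under 1 FPKM in every library, as was LNC-LBCS, which overlaps ID4 over 1711 bases. The groups did not overlap for KIDINS220, E2F2, RPL11 and MBOAT1, and since no gene of the whole table reached an adjusted p below 0.05, these p-values do not set the neighbours apart from other genes.

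E proteins, the partners that ID proteins hold, were followed next. TCF3, which encodes E12 and E47, stood at 21.3 and 21.6 FPKM under control siRNA and 26.8 and 30.2 FPKM under KIF26B siRNA. Its level was higher in both KIF26B siRNA libraries than in both controls, with a log2 difference of 0.39 (standard error 0.12), but the adjusted p from limma was 0.280. TCF12, which encodes HEB, stood at 8.33 and 7.80 against 7.63 and 5.45 FPKM (log2 difference −0.28, standard error 0.19, adjusted p = 0.501 from limma). TCF4, which encodes E2-2, is listed at 0 in all 4 libraries. Of the 47 tissue-restricted partners listed, such as ASCL, NEUROD and MYOD factors, 20 were at 0 in every library and 3 passed the minimum of 1 FPKM on average. These were SCX, MESP1 and BHLHA15, whose groups overlapped and whose log2 differences lay between −0.13 and 0.28.

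HES and HEY factors are repressors of the same class that answer mainly to Notch. Of the 8 of 13 listed that were tested, none passed the thresholds in either direction (1.42% of all genes tested did), and the median log2 difference was −0.17, against −0.01 over all genes tested. HES4 stood at 69.8 and 75.9 against 50.0 and 142.2 FPKM, with KIF26B siRNA replicates 1 and 2 on opposite sides of the controls. BHLHE40, a clock-related repressor gene, stood at 81.4 and 80.4 against 41.5 and 81.2 FPKM. HES6 stood at 28.8 and 31.0 against 19.4 and 26.0 FPKM (log2 difference −0.40, adjusted p = 0.371 from limma). HES1, named after its values were seen, had the largest difference of the list, at 20.1 and 21.8 against 10.3 and 14.1 FPKM without overlap (log2 difference −0.75, standard error 0.19, adjusted p = 0.248 from limma).

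Other genes taken as targets of BMP signals were followed with a list of 24 genes that leaves out the ID family, of which 11 were tested. The list was chosen with earlier results of these data known, and whether BMP signals induce its genes in these cells was not tested. At the study's thresholds, 2 of the 11 were lower and 0 higher, beside 0.606% and 0.813% of all genes tested. SMAD7, an inhibitor of BMP and TGF-β receptors, fell past these thresholds from 4.69 and 5.04 to 0.725 and 1.36 FPKM, a log2 difference of −1.54 (standard error 0.20, adjusted p = 0.242 from limma). SKIL, which encodes the SMAD repressor SnoN, fell past them from 5.37 and 5.46 to 1.68 and 2.81 FPKM, a log2 difference of −1.01 (standard error 0.21, adjusted p = 0.242 from limma). SKIL lies at the threshold: its log2 difference was −0.993 under median-of-ratios scaling and −0.997 without control siRNA replicate 2, just short of 1, and −0.753 without KIF26B siRNA replicate 1, each of which left 1 gene, SMAD7. For both genes the KIF26B siRNA libraries were below both controls, but KIF26B siRNA replicate 1 was the lower of the pair, whereas for ID2 it was replicate 2.

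Across this list, 10 of the 11 genes tested had a log2 difference below 0, against 7490 of all 14523, and the median was −0.44, against −0.01 over all genes tested. Both libraries of KIF26B siRNA lay below both controls for 8 of the 11 and above both for 0, beside 27.8% and 24.9% of all genes tested. Because the list was chosen with earlier results of these data known, these counts and the median are a description, not a test of the pathway. A lower median was not particular to this list. It was −0.24 for 10 BMP receptors, co-receptors and SMADs, where both KIF26B siRNA libraries lay below both controls for 8 and above for 1. For 5 BMP antagonists it was −0.35, for 4 genes acting on ID proteins −0.41 and for 3 retinoblastoma genes −0.45. For the 2 E proteins tested it was 0.06. SMAD6, a BMP-specific inhibitory SMAD gene named here after its values were seen, stood at 2.35 and 2.21 against 1.20 and 0.685 FPKM (log2 difference −0.77, standard error 0.18, adjusted p = 0.248 from limma). MSX1, a homeobox gene named likewise, lay on both sides of the controls as ID3 did, with 42.8 and 42.9 FPKM in the controls, 65.0 FPKM in KIF26B siRNA replicate 1 and 26.6 FPKM in replicate 2.

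**Figure D4:**
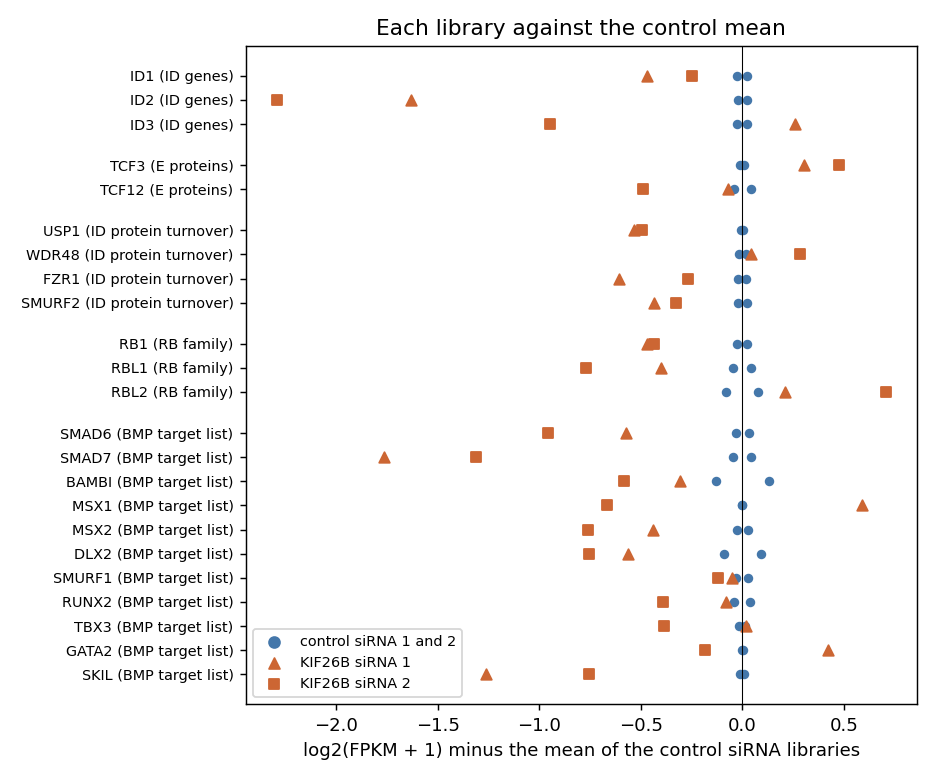
Value of each library on the log2(FPKM + 1) scale minus the mean of the control siRNA libraries (horizontal axis) for the tested genes of 5 lists (vertical axis), with control siRNA libraries as blue circles, KIF26B siRNA replicate 1 as orange triangles and replicate 2 as orange squares. ID2 is at −1.63 and −2.29 in KIF26B siRNA replicates 1 and 2, SMAD7 at −1.76 and −1.31, and ID3 has 1 value on either side of 0, at 0.26 and −0.95.

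Upstream in the pathway, none of the tested genes passed the thresholds: 5 BMP ligands, 10 receptors, co-receptors and SMADs, and 5 BMP antagonists. With 1.42% of all genes tested past them, a count of 0 among 20 genes is near the background and says nothing about the pathway. BMP4, the most abundant ligand gene, stood at 21.6 and 22.5 FPKM in the controls, 42.1 FPKM in KIF26B siRNA replicate 1 and 19.4 FPKM in replicate 2 (log2 difference 0.36, standard error 0.40, adjusted p = 0.677 from limma), and so lay on both sides of the controls, as ID3 did. The ligand genes BMP8B and BMP7 had log2 differences of −0.20 and −0.21 (adjusted p = 0.528 and 0.666 from limma). SMAD5, which carries the BMP signal, stood at 13.0 and 12.4 against 6.66 and 11.4 FPKM (log2 difference −0.49, standard error 0.27, adjusted p = 0.433 from limma). The type I receptor gene ACVR1 and the common mediator SMAD4 had log2 differences of −0.39 and −0.25 (adjusted p = 0.371 and 0.360 from limma). Among the antagonists, TWSG1, NBL1 and FSTL3 had log2 differences of −0.35, 0.25 and −0.05 (adjusted p = 0.346, 0.402 and 0.844 from limma).

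Genes that act on ID proteins or downstream of them were read last. USP1, a deubiquitinase known to stabilise ID proteins, stood at 15.7 and 15.8 against 10.6 and 10.9 FPKM (log2 difference −0.51, standard error 0.11, adjusted p = 0.242 from limma). Its cofactor WDR48 had a log2 difference of 0.16 (adjusted p = 0.591 from limma). FZR1, an activator of the anaphase-promoting complex, and SMURF2, a ubiquitin ligase, had log2 differences of −0.44 and −0.38 (adjusted p = 0.308 and 0.274 from limma). Of the retinoblastoma family, RB1 stood at 11.4 and 11.8 against 8.09 and 8.30 FPKM (log2 difference −0.45, adjusted p = 0.248 from limma). RBL1 and RBL2 had log2 differences of −0.58 and 0.46 (adjusted p = 0.272 and 0.374 from limma), so that members of that family differed in sign.

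Of the 7 CDK inhibitor genes, all tested, none passed the thresholds in either direction, beside 1.42% of all genes tested. CDKN1A, which encodes p21 and is known to be activated by E proteins and by p53, stood at 206.4 and 210.5 FPKM under control siRNA and 267.7 and 317.9 FPKM under KIF26B siRNA. Both libraries of KIF26B siRNA lay above both controls, with a log2 difference of 0.48 (standard error 0.14, adjusted p = 0.271 from limma). CDKN1B stood at 27.2 and 25.6 against 16.4 and 30.8 FPKM, and CDKN1C at 19.6 and 21.1 against 9.75 and 51.0 FPKM, both with overlapping groups. CDKN2C, named after its values were seen, had the largest difference of the list, at 5.48 and 5.13 against 2.78 and 3.09 FPKM without overlap (log2 difference −0.68, standard error 0.12, adjusted p = 0.242 from limma).

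The genes whose profile over the 4 libraries was most like that of a member were listed by the distance between their log2(FPKM + 1) values, each taken minus its control mean. The 5 nearest to ID1 were SHOX2, CYRIB, SLC30A3, RHPN2 and MANF, at distances of 0.0202 to 0.0396. The 5 nearest to ID3 were DSC2, LPCAT3, MYD88, KPNA6 and TMEM250, at distances of 0.0207 to 0.0912. Distances to ID2 were larger, as the choice of ID2 for its low values sets it at the edge of the genes tested. The nearest with a symbol, RNU6-633P, was at a distance of 0.607 and had 1 to 16 reads in each library, so that a few reads set its profile. Among genes with at least 100 reads over the control siRNA libraries, the nearest to ID2 were ZCCHC12, CCN2, MICB, RBM24 and RPS24P19, at distances of 0.692 to 0.929. CCN2, a matricellular protein gene, stood at 5.21 and 5.18 against 1.02 and 1.04 FPKM, and MICB, a ligand gene of a natural killer cell receptor, at 38.7 and 38.5 against 17.6 and 10.2 FPKM. Likeness over 4 libraries says little about shared control, and it is given as a description.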

How the data were processed

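RNA-seq of 4 HCT116 libraries was read from the FPKM values that the authors deposited for 58735 Ensembl identifiers, 56513 of which were matched to symbols of GENCODE v44 on GRCh37. The submitters' processing notes name HISAT2 2.0.5, featureCounts 1.5.0-p3 and hg38, whereas the study's methods name hg19, and the files hold no coordinates. The annotation, the strand setting and the unit are not given in the sources used here. FPKM was read from the values, which are multiples of what 1 read is worth for a gene's length. For 34638 of 34638 genes above 0, whole reads were recovered within 0.0005 reads plus an allowance for rounding that grows with read number and gene length. The sums of these reads (19073721 to 24700684) set the precision, and intervals cover counting error only. The libraries were prepared with a kit that does not mark strand.

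limma 3.58.1 (R 4.3.3) was fitted to log2(FPKM + 1) of the 14523 genes that averaged 1 FPKM or more over the 4 libraries, by group without covariates, with Benjamini-Hochberg adjustment. Fold changes on this scale understate those of low genes. Alternatives were a pseudocount of 0.1, no filter, a replicate block, median-of-ratios scaling, limma-voom on recovered reads, each library left out and, chosen after seeing the data, scaling by total recovered reads. The scripts were tested on simulated data.

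The members, gene lists and tests were chosen with earlier results of these data known. Named were the 4 members, KIF26B, all E-protein, ID-stability and retinoblastoma genes, genes of other lists past the thresholds (otherwise the 3 with the highest mean FPKM), genes next to or over a member, and the 5 genes nearest in profile. SMAD6, MSX1, HES1, CDKN2C, ENG, BMP6 and the genes nearest to ID2 with at least 100 control reads were named after their values were seen. Promoter sequences are from RefSeq (GRCh38.p14).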

Additional observations from a re-analysis of the deposited data

How the results depend on the processing

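ID2 and ID1 were lower after KIF26B siRNA under every alternative run, with log2 differences of −2.29 to −1.63 for ID2 and −0.47 to −0.25 for ID1 when 1 library was left out. For ID1 the 95% interval of the main fit, −0.73 to 0.01, included 0. The filter on low values has no bearing on the log2 difference of a single gene. ID3 ranged from −0.95 to 0.26 and turned positive (0.26) without KIF26B siRNA replicate 2. ID4 ranged from −0.30 to 0.07 when 1 library was left out and turned positive (0.07) without control siRNA replicate 2, and a pseudocount of 0.1 gave −0.42 and limma-voom −0.67. The 88 genes lower and 118 higher past the thresholds became 203 and 217 with a pseudocount of 0.1, and 206 and 199 with limma-voom. With 1 library left out they were 123 to 223 lower and 156 to 334 higher. The 2 BMP targets became 4 under limma-voom and under the pseudocount of 0.1, where SMAD6 and DLX2 joined, 1 under median-of-ratios scaling, where SKIL was at −0.993, and 1 to 2 with 1 library left out. What causes these shifts was not tested.

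Replicate numbers are shared between the groups, but the labels name no shared batch, and deviations of same-numbered libraries had a correlation of −0.003 across genes. With a replicate block, 98 genes were lower and 135 higher, and the log2 difference of ID2 was −1.96 and that of ID1 −0.36. Scaling by total recovered reads, chosen after seeing the data, moved the median of all genes from −0.01 to −0.05 and gave −2.01 for ID2 and −0.40 for ID1. With 2 libraries a group, the spread within a group rests on a single difference, and ID4 is limited by its few reads.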
